A study of Mus musculus with 8 samples.

Results

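The genes described here encode 9 enzymes of one-carbon metabolism in mouse liver, the folate cycle and the methionine cycle with its exit to cysteine. The enzymes are Mthfd1, Mthfd2, Shmt1, Shmt2, Mat1a, Gnmt, Bhmt, Ahcy and Cbs. Each gene was taken from the array through the probe sets that the platform annotation pairs with its symbol alone, and the brightest probe set by its mean over all arrays stood for the gene. This gave values for 8 of the 9 genes, out of 19540 genes measured. Ahcy, the hydrolase that splits S-adenosylhomocysteine, was not analysed here.

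The arrays compared livers labelled HNF6KO, in which the transcription factor HNF6 is depleted, with livers labelled WT, with 4 arrays in each group. HNF6 is encoded by Onecut1. Every sample is labelled as liver total RNA of a male C57B/6 mouse aged 12 weeks, and livers were taken at ZT10, which the series gives as 5 pm. The mice of both groups ate normal chow under a normal light and dark schedule and had no specific treatment. The sources used here do not give the means by which HNF6 was removed, or whether WT mice carried any allele or vector for it. Nothing in the labels says that each array is a different animal, so the spread behind the p-values may be technical.

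Folate carries single carbon units in the cytosol and in mitochondria. Serine hydroxymethyltransferases (Shmt1 in the cytosol, Shmt2 in mitochondria) load the carbon of serine onto tetrahydrofolate, and the dehydrogenase and cyclohydrolase enzymes (Mthfd1 in the cytosol, Mthfd2 in mitochondria) move it between oxidation states for purine, thymidylate and methyl group synthesis. In the methionine cycle, liver Mat1a makes S-adenosylmethionine, the methyl donor of the cell. Gnmt uses up excess S-adenosylmethionine by methylating glycine, Bhmt rebuilds methionine from homocysteine with betaine, and Cbs commits homocysteine to cysteine synthesis. Hepatocytes hold high levels of several of these enzymes.

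All values are on a scale read as log2, and each change is HNF6KO minus WT. A gene was called where its p, from limma's moderated test fitted on all genes and adjusted by Benjamini and Hochberg over all genes, was under 0.05. On this rule 0.399% of all genes were called (78 genes), 0.159% as higher (31 genes) and 0.241% as lower (47 genes). The 4 HNF6KO arrays lay wholly above or wholly below the 4 WT arrays for 5.67% of all genes, above for 2.45% and below for 3.21%. Array medians lay between 6.89 and 6.97, and the number of arrays limits the precision of each value.

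Onecut1 itself was lower on every HNF6KO array. WT ranged from 9.87 to 10.52 and HNF6KO from 8.67 to 9.32. Its log2 change was -1.32 ± 0.18 (SE, n = 4 per group, limma adjusted p = 0.0273). The change was larger in arrays 3 and 4 (-1.80) than in arrays 1 and 2 (-0.83), and the labels give no batch or date for either pair. The Onecut1 call was lost without WT array 1, 3 or 4, or without HNF6KO array 3 or 4.

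Of the 8 measured genes, Mthfd1 rose, 0 fell and 7 did not pass the test. This count of 1 in 8 (12.5%) stands against 0.399% called among all genes, with 0.159% higher and 0.241% lower. The median change of the 8 genes was 0.0014, with 4 above 0 and 4 below 0, beside a median of -0.0146 over all genes. The largest changes in size were 0.28 for Mthfd1 and -0.24 for Mthfd2.

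**Figure D1:**
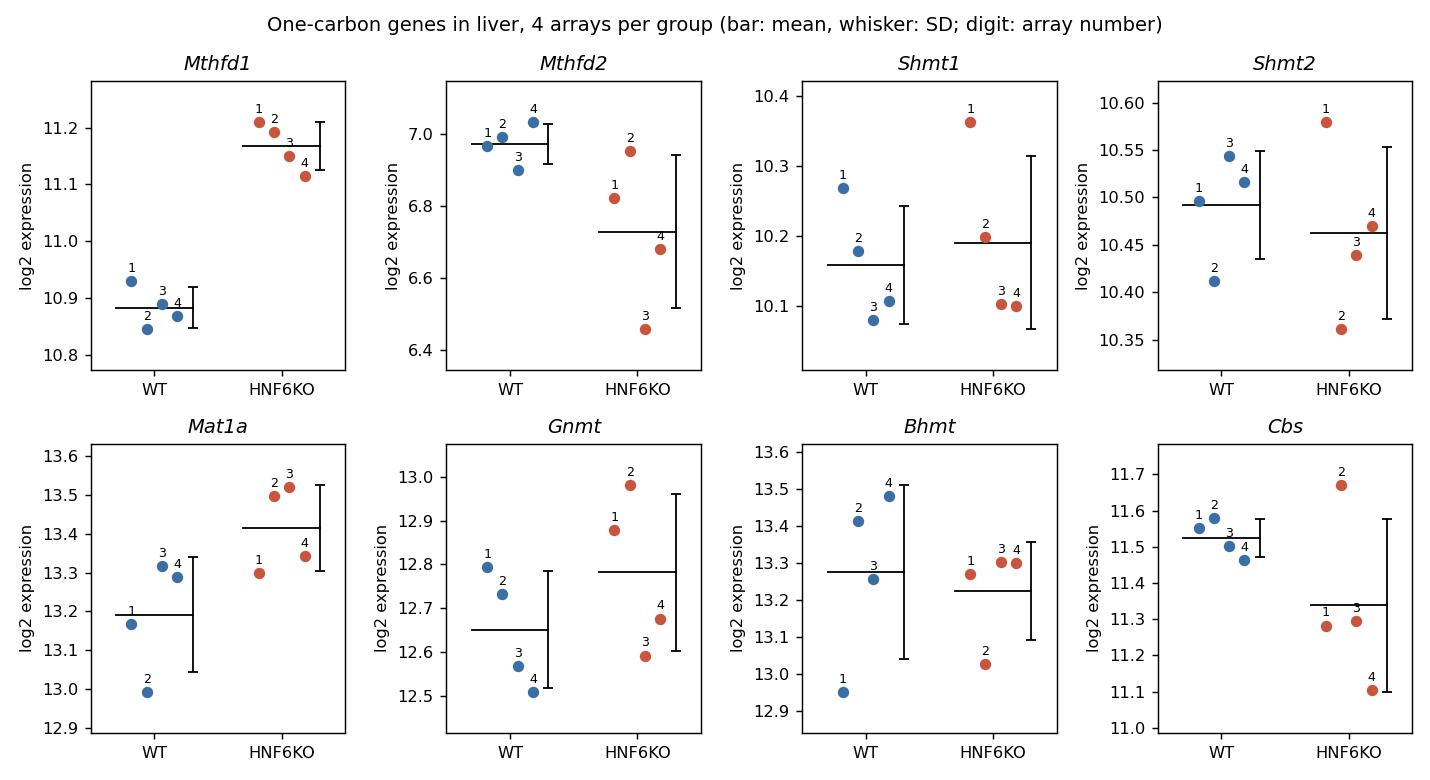
Log2 expression of the 8 measured genes on each array, WT in blue and HNF6KO in red, with the array number above each point, the group mean as a bar and the SD as a whisker; each panel has its own axis range. Mthfd1 is the gene whose groups do not overlap (10.85 to 10.93 in WT, 11.12 to 11.21 in HNF6KO), and the groups of the other 7 genes overlap.

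Mthfd1, the trifunctional folate enzyme of the cytosol, was higher in HNF6KO on every array. It read 10.93, 10.85, 10.89 and 10.87 on WT arrays 1 to 4. It read 11.21, 11.19, 11.15 and 11.12 on HNF6KO arrays 1 to 4. The lowest HNF6KO array thus lay above the highest WT array, and the arrays of each group sat close together. The WT mean was 10.88 ± 0.036 and the HNF6KO mean 11.17 ± 0.0425 (SD, n = 4 each). The change was 0.28 ± 0.0452 (SE) with a 95% interval of 0.18 to 0.39, which is 1.22-fold or 21.8% more signal (limma adjusted p = 0.0433).

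The call of Mthfd1 was a close one, although the size of its change was steady. Mthfd1 stood 64th by p among the 78 called genes. The last called gene had an adjusted p of 0.0498 and the first uncalled gene one of 0.0510. Its residual SD of 0.0395 was below that of most genes (3.37th percentile, median gene 0.103). Leaving out any 1 of the 8 arrays ended the call, with changes of 0.27 to 0.30 and limma adjusted p of 0.0623 (without HNF6KO array 1) to 0.176 (without WT array 2). Arrays 1 and 2 alone gave a change of 0.31, and arrays 3 and 4 alone gave 0.255.

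**Figure D2:**
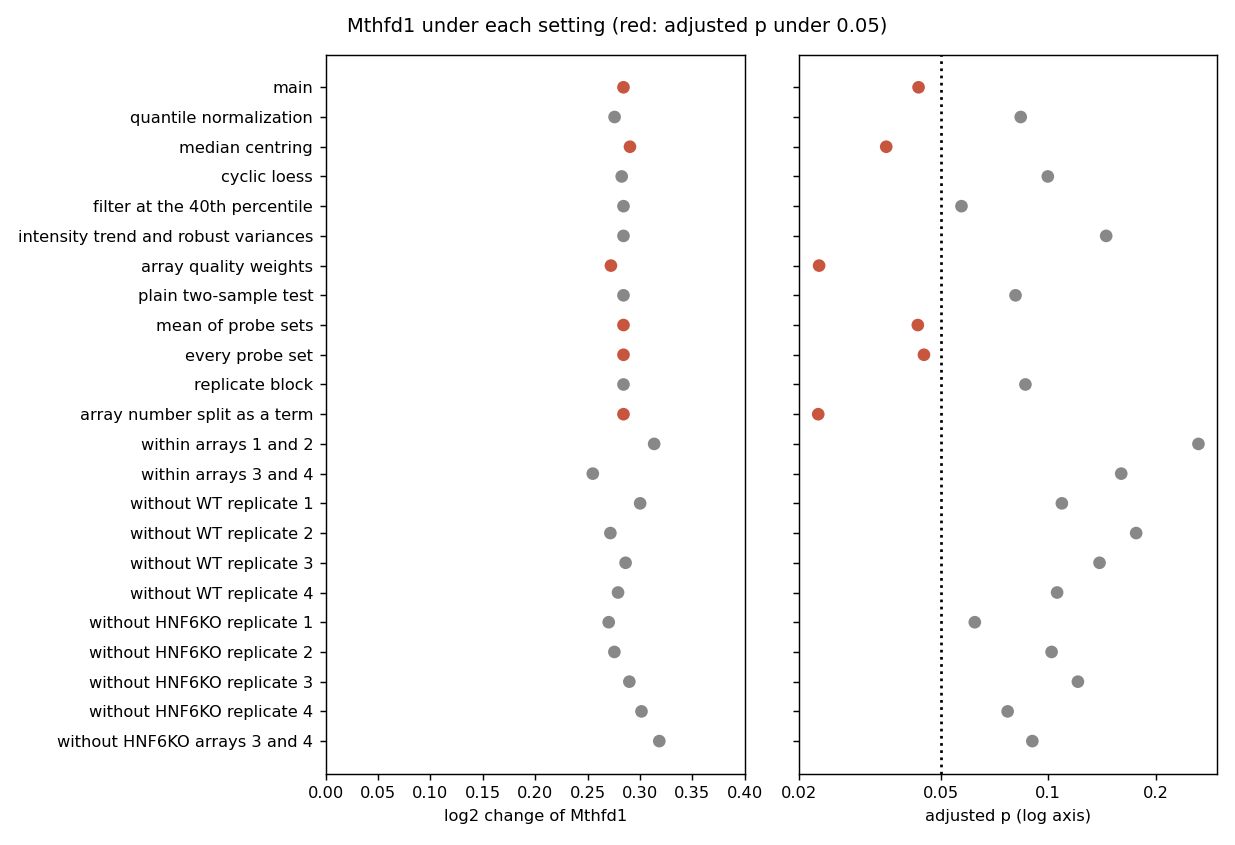
Log2 change of Mthfd1 (left) and its adjusted p on a log axis (right) in the reported fit and under each other setting, red where the adjusted p is under 0.05 and with a dotted line at 0.05. The change stays between 0.255 and 0.32 throughout, while the adjusted p falls on either side of the line, from 0.0227 to 0.263. The filter, intensity trend, plain test, probe set, replicate block and array number settings cannot move the change, which stays at 0.28 there.

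The start region of Mthfd1 is shown because HNF6 belongs to the ONECUT factors, which bind a core written ATTGAT, searched on both strands. The 250 bases before its RefSeq start lie at chr12:76254982-76255231 (GRCm38.p6, plus strand). They are printed 5′ to 3′ with the CCAAT box, a common promoter element read here on the opposite strand as ATTGG, in capitals.
Mthfd1: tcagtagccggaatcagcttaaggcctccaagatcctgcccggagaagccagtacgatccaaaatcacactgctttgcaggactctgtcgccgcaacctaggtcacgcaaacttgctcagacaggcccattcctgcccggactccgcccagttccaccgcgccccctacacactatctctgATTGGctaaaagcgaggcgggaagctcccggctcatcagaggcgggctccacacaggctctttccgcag
The CCAAT box lies 69 to 65 bases before the start. The RefSeq table held such a window for 8 of the 9 genes (Mat1a had none there), and 0 of the 8 windows held ATTGAT on either strand, against 6.72% of 32851 mouse windows of the same length. A CCAAT box stood in 7 of the 8 windows (all but Shmt2), against 33.8% of all windows. These matches describe letters in a short window and say nothing about whether a factor binds there or elsewhere.

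Mthfd2, the mitochondrial relative of Mthfd1, had the lowest change of the 8 genes and did not pass. It read 6.97, 6.99, 6.90 and 7.03 on the WT arrays and 6.82, 6.95, 6.46 and 6.68 on the HNF6KO arrays. HNF6KO arrays 1, 3 and 4 lay below every WT array, and HNF6KO array 2 lay within the WT range. The change was -0.24 ± 0.098 (SE, 95% interval -0.47 to -0.02, limma adjusted p = 0.469). Arrays 1 and 2 alone gave -0.09, and arrays 3 and 4 alone gave -0.40.

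Neither serine hydroxymethyltransferase passed, and both changes were near 0. Shmt1 ranged from 10.08 to 10.27 in WT and from 10.10 to 10.36 in HNF6KO, with a change of 0.03 ± 0.07 (SE, limma adjusted p = 0.951). Shmt2 ranged from 10.41 to 10.54 in WT and from 10.36 to 10.58 in HNF6KO, with a change of -0.03 ± 0.06 (SE, limma adjusted p = 0.943). The 95% intervals were -0.13 to 0.20 for Shmt1 and -0.16 to 0.10 for Shmt2. These intervals leave out a change of 0.28, the size seen for Mthfd1, in either direction.

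In the methionine cycle, Mat1a had a positive change that did not pass. It read 13.17, 12.99, 13.32 and 13.29 on the WT arrays and 13.30, 13.50, 13.52 and 13.34 on the HNF6KO arrays. HNF6KO arrays 2, 3 and 4 lay above every WT array, and array 1 lay just under WT array 3. The change was 0.22 ± 0.0848 (SE, 95% interval 0.03 to 0.41, limma adjusted p = 0.434).

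Gnmt, which draws down S-adenosylmethionine, did not pass either. Its WT arrays read 12.79, 12.73, 12.57 and 12.51 and its HNF6KO arrays 12.88, 12.98, 12.59 and 12.68. In both groups arrays 3 and 4 read lower than arrays 1 and 2, by 0.22 in WT and 0.30 in HNF6KO, and this gap was wider than that between the groups. The change was 0.13 ± 0.0995 (SE, 95% interval -0.09 to 0.36, limma adjusted p = 0.764). Shmt1 showed the same order, with arrays 3 and 4 lower by 0.13 in WT and 0.18 in HNF6KO.

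Bhmt, the betaine enzyme, was measured by 3 probe sets that gave changes close to each other. The brightest read 12.95, 13.41, 13.26 and 13.48 on the WT arrays and 13.27, 13.03, 13.30 and 13.30 on the HNF6KO arrays. WT array 1 and HNF6KO array 2 were the low arrays of their groups, and the groups overlapped. The change was -0.05 ± 0.12 (SE, 95% interval -0.31 to 0.21, limma adjusted p = 0.953). The other probe sets gave -0.04 and -0.08. Bhmt and its relative Bhmt2 have similar sequences, so a probe set of either can pick up the other.

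Cbs, the first enzyme of transsulfuration, had a negative change that did not pass. It read 11.55, 11.58, 11.50 and 11.46 on the WT arrays and 11.28, 11.67, 11.29 and 11.11 on the HNF6KO arrays. HNF6KO arrays 1, 3 and 4 lay below every WT array, while HNF6KO array 2 was the highest of all 8. The change was -0.19 ± 0.11 (SE, 95% interval -0.43 to 0.06, limma adjusted p = 0.650). Without HNF6KO array 2 it was -0.30 (limma adjusted p = 0.164).

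**Figure D3:**
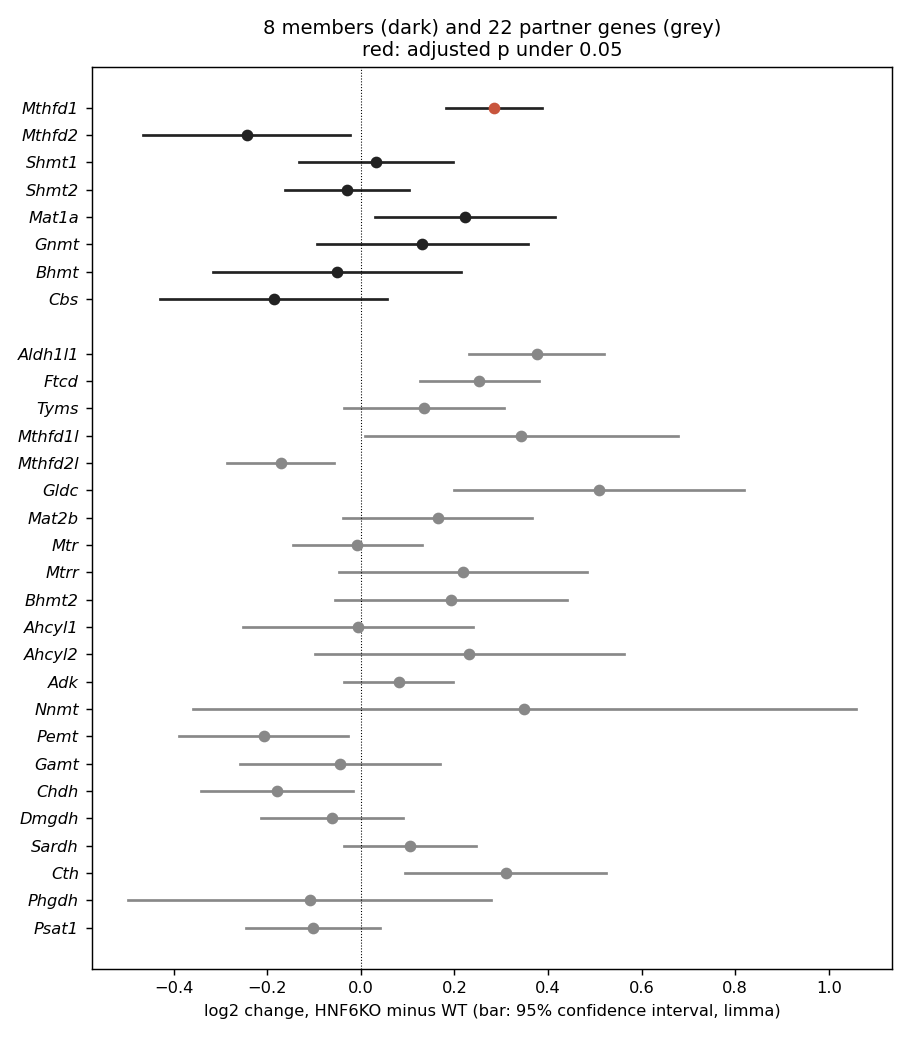
Log2 change (HNF6KO minus WT) with its 95% confidence interval from limma for the 8 genes (dark) and for 22 partner genes (grey); a red point has an adjusted p under 0.05. Mthfd1 is the red point. The intervals of Mat1a, Mthfd1l, Aldh1l1, Ftcd, Gldc and Cth also lie above 0. Those of Mthfd2, Mthfd2l, Pemt and Chdh lie below 0. The adjusted p of these further genes did not pass.

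The neighbouring genes of the pathway came from 6 lists holding 93 genes, of which 78 were measured. Of these 78 genes, 0 passed in limma, and 22 had an unadjusted p under 0.05 (28.2%, against 9.51% of all genes). The arrays of the groups did not overlap for 13 of the 78 (16.7%, against 5.67% of all genes), 10 of them higher in HNF6KO (12.8%, against 2.45%) and 3 lower (3.85%, against 3.21%). The median change of the 78 was 0.04, with 44 above 0 (56.4%, against 42.6% of all genes).

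In the folate list 20 of 24 genes were measured, with a median change of 0.09 and 14 above 0 (70%, against 42.6% of all genes). The groups separated as higher for 4 genes (20%, against 2.45% of all genes) and as lower for 1 (5%, against 3.21%). Aldh1l1, the cytosolic enzyme that releases a folate carbon as carbon dioxide, came closest to the threshold. It read 11.98, 11.94, 11.97 and 12.13 on the WT arrays and 12.51, 12.36, 12.33 and 12.32 on the HNF6KO arrays. Its groups did not overlap, and the change was 0.38 ± 0.0635 (SE, limma adjusted p = 0.0536). Ftcd, which passes a carbon from histidine breakdown to folate, read 11.16 to 11.27 in WT and 11.35 to 11.53 in HNF6KO. Its change was 0.25 ± 0.0561 (SE, limma adjusted p = 0.144).

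Further folate genes whose groups did not overlap were Gldc, Atic and Mthfd2l. Gldc, the glycine decarboxylase of the mitochondrial glycine cleavage system, read 9.58, 9.62, 9.96 and 10.12 in WT and 10.15, 10.18, 10.48 and 10.50 in HNF6KO, with a change of 0.51 ± 0.14 (SE, limma adjusted p = 0.232). Atic, which uses folate carbon in purine synthesis, had a change of 0.20 ± 0.0545 (SE, adjusted p = 0.249). Mthfd2l, a mitochondrial relative of Mthfd2, was the lower gene, at 5.99 to 6.10 in WT and 5.81 to 5.94 in HNF6KO. Its change was -0.17 ± 0.0503 (SE, adjusted p = 0.287), and all its readings lay below every array median (6.89 to 6.97). Mthfd1l, the mitochondrial formate-producing enzyme, had a change of 0.34 ± 0.15 with overlapping groups (adjusted p = 0.510), and the thymidylate synthase Tyms one of 0.13 ± 0.0759 (adjusted p = 0.642).

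The methionine cycle list (15 of 16 measured) had a median change of -0.0063, with no gene whose groups separated. In it 7 changes were above 0 (46.7%, against 42.6% of all genes). Among the methyltransferases that use S-adenosylmethionine, Pemt, which makes phosphatidylcholine, had a change of -0.21 ± 0.0796, Gamt, which makes creatine, -0.04 ± 0.0943, and Nnmt, which methylates nicotinamide, 0.35 ± 0.31, as log2 change ± SE, with overlapping groups for each. The homocysteine-remethylating genes stood at -0.0079 ± 0.0608 for the methionine synthase Mtr, 0.22 ± 0.12 for its reductase Mtrr and 0.19 ± 0.11 for Bhmt2. Mat2b, the regulatory subunit of the other S-adenosylmethionine synthetase, stood at 0.16 ± 0.0895. For the relatives of Ahcy, the changes were -0.0063 ± 0.11 for Ahcyl1 and 0.23 ± 0.15 for Ahcyl2, and Adk, which clears the adenosine that Ahcy releases, stood at 0.08 ± 0.0519. The limma adjusted p of these genes ran from 0.434 for Pemt to 0.994 for Ahcyl1. Mat2a was not analysed here.

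The choline and betaine list (11 of 13 measured) had a median change of -0.06, with 5 changes above 0 (45.5%, against 42.6% of all genes). An unadjusted limma p under 0.05 was seen for 3 of its genes as higher and 2 as lower (45.5%, against 9.51% of all genes). Chdh, which starts betaine synthesis, had a change of -0.18 ± 0.0718, Dmgdh, next after Bhmt in betaine breakdown, -0.06 ± 0.0673, and Sardh, which oxidises the sarcosine that Gnmt makes, 0.10 ± 0.0625. Their limma adjusted p was 0.466, 0.858 and 0.670. The gene of this list whose groups separated was the ethanolamine kinase Etnk1, with a change of -0.32 ± 0.0959 (adjusted p = 0.300). That is 1 of 11 as lower (9.09%, against 3.21% of all genes).

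Downstream of Cbs, the transsulfuration list (12 of 12 measured) had a median change of 0.08. On every HNF6KO array 3 genes were higher (25%, against 2.45% of all genes). Cth, the enzyme that follows Cbs, read 12.26 to 12.41 in WT and 12.43 to 12.88 in HNF6KO, with a change of 0.31 ± 0.0948 (SE, limma adjusted p = 0.307). Mpst and Sqor, which handle sulfur from cysteine and sulfide, had changes of 0.29 ± 0.0646 (adjusted p = 0.150) and 0.36 ± 0.10 (adjusted p = 0.276). The difference between Cth and Cbs was not tested. Csad, which makes the taurine precursor hypotaurine, had the largest change in any of the 6 lists, and it read 10.75, 10.69, 9.95 and 8.19 on the WT arrays and 8.42, 8.60, 8.11 and 8.79 on the HNF6KO arrays. WT array 4 thus lay among the HNF6KO arrays. The change was -1.41 ± 0.50 (SE, limma adjusted p = 0.393), so Csad did not pass. With each array left out in turn it ran from -1.98 without WT array 4 (limma adjusted p = 0.0199), which was the only such case under 0.05, to -1.13 without WT array 1 (adjusted p = 0.677 there, and up to 0.725 without WT array 2). Arrays 1 and 2 alone gave -2.21 (adjusted p = 0.00598), and arrays 3 and 4 alone gave -0.62 (adjusted p = 0.595).

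In the serine and glycine list (10 of 14 measured) the median change was -0.04. The serine synthesis genes Phgdh and Psat1 had changes of -0.11 ± 0.17 and -0.10 ± 0.0632, with overlapping groups (adjusted p = 0.911 and 0.685). Agxt and Agxt2, which turn glyoxylate into glycine, were higher on every HNF6KO array, with changes of 0.41 ± 0.0875 (adjusted p = 0.119) and 0.31 ± 0.0756 (adjusted p = 0.173). Glyat, which conjugates glycine to acyl groups, was lower on every HNF6KO array, with a change of -0.24 ± 0.0838 (adjusted p = 0.374). Such separation was thus seen for 2 genes as higher (20%, against 2.45% of all genes) and 1 as lower (10%, against 3.21%). In the polyamine and methionine salvage list (10 of 14 measured, median 0.06), the spermidine acetyltransferase Sat1 read 8.87 to 9.33 in WT and 9.40 to 9.83 in HNF6KO, a change of 0.60 ± 0.12 (SE, limma adjusted p = 0.0888).

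**Figure D4:**
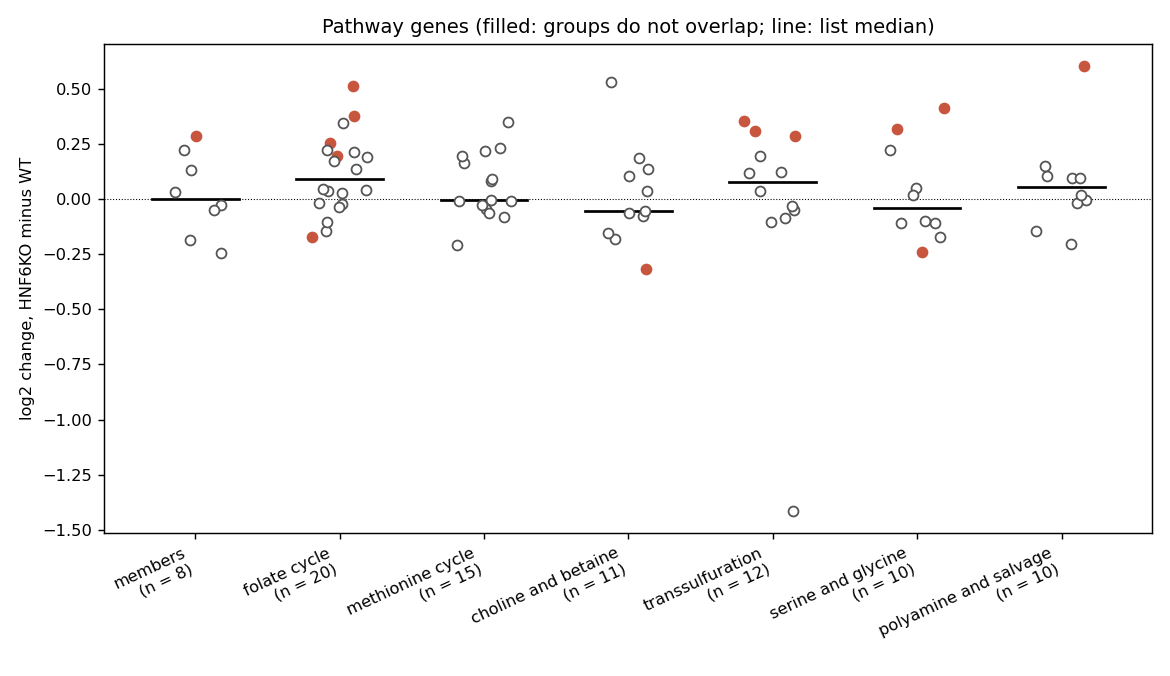
Log2 change (HNF6KO minus WT) of every measured gene, by list, with the number measured under each name; filled points are genes whose 4 HNF6KO arrays lie on 1 side of the 4 WT arrays, and the line is the list median. The medians lie between -0.06 and 0.09, and the point near -1.4 in the transsulfuration list is Csad.

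Markers were read beside these values, and fewer cells of a type and less RNA per cell cannot be told apart in bulk liver. Of 14 hepatocyte markers 11 were measured and 0 passed, with 7 changes above 0 and 4 below 0 and a median of 0.02. Their summed level ran from 17.01 to 17.09 in WT and from 17.01 to 17.13 in HNF6KO on the log2 scale. Albumin (Alb, change 0.08) and transthyretin (Ttr, 0.09) were higher on every HNF6KO array, as Mthfd1 was, or 2 of 11 (18.2%) against 2.45% of all genes. The change of the hepatocyte regulator Hnf4a was -0.19 (limma adjusted p = 0.821). The summed level of 11 Kupffer cell markers ran from 11.34 to 12.77 in WT and from 11.40 to 13.12 in HNF6KO on the log2 scale. For 9 sinusoidal endothelial markers it ran from 11.79 to 12.55 and from 11.68 to 12.72, and for 10 stellate cell markers from 11.96 to 12.75 and from 12.01 to 12.79. For 6 biliary markers it ran from 8.78 to 8.84 and from 8.74 to 8.85, and for 10 lymphocyte and neutrophil markers from 9.25 to 9.31 and from 9.20 to 9.35. The ranges of these 5 lists overlapped between the groups, and 0 of their markers passed in limma. Of 7 erythroid markers 2 were measured, and their sum ran from 9.90 to 10.18 in WT and from 8.81 to 9.60 in HNF6KO, without overlap. That gap came from Alas2, with a change of -0.98 (limma adjusted p = 0.0925), whose groups separated as lower. This is 1 of the 2 measured (50%, against 3.21% of all genes). The groups of Slc4a1 overlapped, with a change of -0.03 (limma adjusted p = 0.958). The part of these marker differences in the change of Mthfd1 was not tested.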

How the data were processed

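The authors deposited 1 table of values for 22725 probe sets on 8 Affymetrix arrays. The deposited values are read as log2 expression because they run from 3.69 to 14.1, and the sources used here give no background correction, normalization or log base. Per the labels' protocols, RNA was extracted with Trizol and labelled with biotin by a GeneChip kit.

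The platform annotation paired 21113 probe sets with 1 symbol, 43 with several and 1569 with none here. The brightest probe set per symbol was kept, which gave 19540 genes. The groups were compared with no covariate by lmFit and eBayes of limma 3.58.1, under R 4.3.3. The fit was tested on simulated data.

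Members and lists were chosen with earlier results of these data known. The genes given with values are the 8 measured members, Onecut1, 22 measured partners on a fixed list, and any list gene that passed, Pcna being 1. For each member, the gene most like it over the arrays is also named. Gene models without a proper name, and olfactory and vomeronasal receptor genes, were left out of that choice. Atic, Agxt, Agxt2, Mpst, Sqor, Etnk1, Glyat, Sat1, Csad, Alb, Ttr, Hnf4a, Alas2, Slc4a1, Epcam, Marco and Timd4 were chosen after their values were seen. Promoter windows are from RefSeq (GRCm38.p6).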

Additional observations from a re-analysis of the deposited data

Results flagged for a closer look

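Among 84 sets of 4 arrays examined (the 8 genes, Onecut1 and 33 further named genes, each in both groups), 1 array stood far from the rest of its group, where chance alone sets apart about 1 in 20. It was Bhmt on HNF6KO array 2, which read 13.03 while the other HNF6KO arrays read 13.27 to 13.30. Without this array the change of Bhmt was 0.0151. The cell type markers and Atf4 were not among the sets examined. Several markers held 1 array apart from the rest of its group. Slc4a1 read 7.17 on WT array 4 and 6.90 to 6.94 on the other WT arrays. Epcam read 5.55 on WT array 2 and 5.61 to 5.62 on the other WT arrays. Marco read 7.79 on HNF6KO array 3 and 7.06 to 7.15 on the other HNF6KO arrays. Timd4 read 6.34 on WT array 1 and 7.21 to 7.36 on the other WT arrays. These are examples, not a full list.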

How the results depend on the processing

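Over 24 alternatives Mthfd1 stayed higher in HNF6KO, at 0.255 to 0.32, and was called in 6 of them. These were median centring, array quality weights, a threshold of 0.1, the mean of probe sets, every probe set and an array number term. That term sets the arrays numbered 1 or 2 apart from those numbered 3 or 4. Mthfd1 has 1 probe set, so the mean of probe sets and every probe set leave its values as they were. A threshold of 0.1 could not lose a gene called at 0.05. The count of called members was 0 after quantile normalization, cyclic loess, removal of genes under the 40th percentile, intensity trend with robust variances, a plain two-sample test, a threshold of 0.01, the replicate block, within arrays 1 and 2, within arrays 3 and 4, and without HNF6KO arrays 3 and 4, and from 0 to 0 with each array left out. The threshold of 0.01 left the limma adjusted p of Mthfd1 at 0.0433. The last 4 of these settings also held fewer arrays. The cause of the other lost calls was not tested. The count of pathway genes called, 0 in the reported fit, was 1 with median centring (Aldh1l1), 3 with array weights (Aldh1l1, Agxt and Sat1), 2 at a threshold of 0.1 (Aldh1l1 and Sat1), 3 with the array number term (Aldh1l1, Gldc and Sat1) and 1 within arrays 1 and 2 (Csad), and ran from 0 to 1 with each array left out. The count over all genes, 78, was 202 with array weights, 2 in the plain test, 14 and 162 at thresholds of 0.01 and 0.1, 245 with the array number term, 22 within arrays 1 and 2, 19 without HNF6KO arrays 3 and 4, and 16 (without WT array 2) to 79 with each array left out. The Onecut1 call was lost in the plain test (-1.32, adjusted p = 0.194), at a threshold of 0.01 (-1.32), within arrays 1 and 2 (-0.83) and without HNF6KO arrays 3 and 4 (-1.06), and its change ran from -1.45 to -1.23 with each array left out.

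With the array number as a replicate block, Mthfd1 had an adjusted p of 0.0863 with the same change of 0.28, 0 members and 1 pathway gene (Gldc, adjusted p = 0.0187) passed, and the count over all genes was 125. Deviations of arrays sharing a number correlated at 0.44, 0.17, 0.51 and 0.0233 over all genes, so the numbers do not pair the arrays throughout. Between groups, deviations also correlated for arrays of different number within 1 and 2 (0.24 and 0.35) and within 3 and 4 (0.45 and 0.32), and across these pairs they ran from -0.50 to 0.0248.

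Small changes turned sign in places. Shmt1 was -0.0286 with array weights and Shmt2 0.0163 within arrays 1 and 2. With each array left out Shmt1 ran from -0.0249 to 0.0688, Shmt2 from -0.0682 to 0.0043 and Bhmt from -0.16 to 0.0173. Among partner genes, Ahcyl1 was 0.0052 after quantile normalization, 0.0739 with array weights and 0.0775 within arrays 3 and 4. Mtr was 0.0044 after cyclic loess, 0.0442 with array weights and 0.0556 within arrays 3 and 4. Within arrays 3 and 4 Nnmt was -0.10 and Gamt 0.0545, and Phgdh was 0.27 within arrays 1 and 2. Without HNF6KO arrays 3 and 4 Phgdh was 0.21 and Ahcyl2 -0.0123. With each array left out Ahcyl1 ran from -0.0846 to 0.0831, Mtr from -0.0362 to 0.0416, Gamt from -0.12 to 0.0096 and Phgdh from -0.28 to 0.0080.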

Other observations

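Mthfd2 is a known target of ATF4, which drives the amino acid stress response. Of 13 other measured genes of that response, with Atf4 itself counted among them, 0 passed in limma. An unadjusted limma p under 0.05 was seen for 1, which was lower (7.69%, against 9.51% of all genes in either direction). Of the 13, 10 were below 0 and 3 above 0 (23.1% above, against 42.6% of all genes). The median change was -0.05 beside -0.0146 over all genes. In 2 of the 13 every HNF6KO array lay below every WT array (15.4%, against 3.21% of all genes). Atf4 itself had a change of -0.19 ± 0.12 (SE, adjusted p = 0.707). Of 15 measured genes of DNA replication and the cell cycle, which use the thymidylate and purines that folate carbon builds, Pcna rose and 14 did not pass (6.67% called, against 0.399% of all genes). Pcna, the sliding clamp of DNA polymerase, read 9.09, 9.28, 9.27 and 9.16 in WT and 9.51, 9.63, 9.54 and 9.62 in HNF6KO. Its change was 0.37 ± 0.0591 (SE, limma adjusted p = 0.0433), with adjusted p of 0.0540 to 0.128 when any 1 array was left out. The median change of the list was 0.15, with 12 above 0 (80.0%, against 42.6% of all genes). The groups of 4 genes did not overlap (26.7%, against 5.67% of all genes). Of these 4, 3 were higher in HNF6KO (20% of the list, against 2.45%) and 1 was lower (6.67%, against 3.21%). The summed level of the list ran from 11.24 to 11.31 in WT and from 11.27 to 11.50 in HNF6KO, and its part in the change of Mthfd1 was not tested.

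The gene whose values over the 8 arrays lay nearest to those of Mthfd1, by Pearson's r, was Hal (r = 0.98). Gene models without a proper name, and olfactory and vomeronasal receptor genes, were left out of this search. Hal is the histidase that opens the histidine pathway ending at Ftcd. Hal read 11.91, 11.80, 11.78 and 11.83 in WT and 12.15, 12.21, 12.16 and 12.05 in HNF6KO, a change of 0.31 ± 0.0531 (SE, limma adjusted p = 0.0536). The likeness includes the gap between the groups. By the same search the nearest gene was Sprr4 for Mthfd2, Sema4g for Shmt1, Amph for Shmt2 and Slc25a29 for Mat1a. It was Septin6 for Gnmt, Ift22 for Bhmt and Ccr4 for Cbs. Their r ran from 0.95 to 0.99, and each was the highest among the genes kept from 19540. Values this high are thus a description of these arrays alone.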
